A study of Homo sapiens with 9 samples.

Results

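The transcriptome of control LAPC4 cells is described here from the 3 control libraries of a 9-library RNA sequencing series on UGT2B28, chosen by their label and by no measured value. LAPC4 is an established human prostate cancer line, labelled as prostate epithelial cancer cells and known for its androgen response. UGT2B28 encodes a UDP-glucuronosyltransferase, an enzyme that attaches glucuronic acid to steroids. The control cells (genotype label control, title label NT) were harvested at day 30 and were grown in IMDM with 15% fetal bovine serum and antibiotics. The labels name a selection drug for the other 2 groups and none for the controls, and they do not say whether the 3 control libraries came from separate cultures. The spread between them may therefore be technical, and 1 cell line stands behind all of them.

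In prostate epithelium, luminal cells secrete kallikrein proteases in response to androgens, with the help of the pioneer factors FOXA1, HOXB13 and GATA2. Basal cells carry TP63 and the keratins KRT5 and KRT14 instead. Androgens are made and converted by dehydrogenases and 5-alpha-reductases and are removed by sulfation and glucuronidation. A prostate cancer line can be placed by which of these programmes it transcribes.

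The deposited counts on genes summed to 8132206, 9303171 and 9410048 in controls 1, 2 and 3. Values are given as CPM, the count of a gene per 1000000 counts on genes, in that order of libraries. Of 60325 gene rows, 14978 reached at least 1 CPM in every library and 31161 (51.7%) had no count in any. Among the 19790 rows matched to a protein-coding gene, 11766 (59.5%) reached 1 CPM in every library and 4208 (21.3%) had no count. These shares are the ones to set beside the counts of list members below, where a list holds protein-coding genes. A gene without a count over the 26845425 summed counts can still have been present at up to 0.112 CPM, the limit that 3 counts over the 3 libraries set, and such limits cover counting error only. Counts exclude reads that aligned to more than 1 place, so near-identical paralogs are read too low. Genes with at least 20% of their exon length overlapping another gene are called uncertain where they are named. Genes with a smaller overlap are named without that mark.

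Control LAPC4 cells carried a luminal prostate profile with part of the basal and fibroblast lists and few neuroendocrine, endothelial or immune transcripts. Of 29 luminal markers with a row, 27 reached 1 CPM in every library. So did 6 of 16 basal, 8 of 20 fibroblast and smooth muscle, and 4 of 14 club and hillock markers. For neuroendocrine markers the count was 2 of 22, for endothelial markers 1 of 12 and for immune markers 2 of 20. The genes that follow were chosen as markers with earlier results of these data known, so their presence is no check of the label. KRT8, a keratin of simple and luminal epithelia, stood at 1092, 1090 and 1294 CPM, and its partner KRT18 at 663, 659 and 780 CPM. KLK3, which encodes prostate-specific antigen, stood at 828, 819 and 1244 CPM. Control 3 was the highest library for all 3 genes. HOXB13, the prostate homeobox factor, stood at 240, 238 and 243 CPM, with no library apart from the others. UGT2B11, a glucuronosyltransferase of the same family as UGT2B28, stood at 51.8, 48.8 and 67.5 CPM.

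Most other luminal genes were likewise present in every library. FOXA1, a pioneer factor that opens chromatin, stood at 773, 819 and 792 CPM. FOLH1, the gene for prostate-specific membrane antigen, stood at 246, 256 and 284 CPM. Both varied little between libraries. Low members of the luminal list were ACP3, which encodes prostatic acid phosphatase, at 13.2, 13.2 and 12.3 CPM, and TRPM8, a cation channel, at 1.6, 3.01 and 5.53 CPM. AMACR, a racemase often raised in prostate cancer, had 9, 7 and 5 counts and is uncertain because its exons overlap another gene. NPY, a neuropeptide, had 0, 2 and 0 counts.

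**Figure D1:**
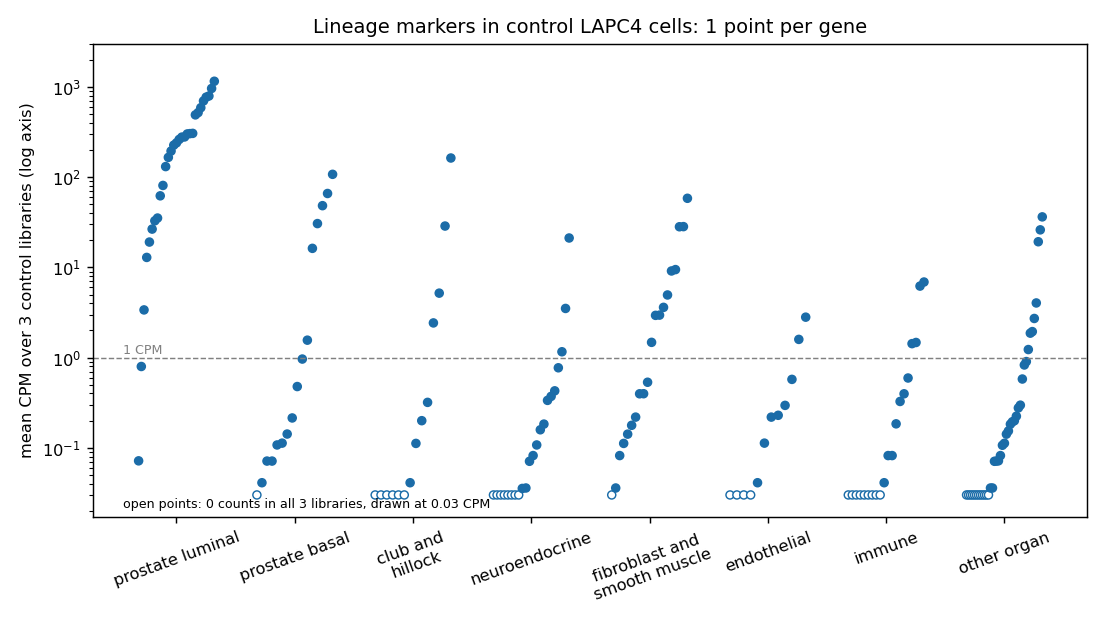
Mean CPM over the 3 control libraries for every member of 8 lists of lineage markers, with 1 point per gene on a log axis and open points for genes without a count in any library. Luminal markers fill the range up to KRT8, whereas most markers of the other lineages lie under the dashed line at 1 CPM.

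Of the 16 basal markers, 6 reached 1 CPM in every library and 1 had no count. ITGB4, the beta-4 integrin of hemidesmosomes, stood at 113, 108 and 102 CPM and its partner ITGA6 at 46, 51.8 and 47.3 CPM. KRT15 stood at 53.1, 50.6 and 94.3 CPM and was highest in control 3. The defining factor TP63 had 1, 0 and 0 counts, KRT5 had 3, 1 and 9, KRT14 had 7, 9 and 10, and KRT13 had none. The integrins and KRT15 were thus present, while TP63, KRT5 and KRT14 were at or near 0. In the neuroendocrine list, ENO2, which is also a glycolytic enolase, stood at 15.1, 16.6 and 31.9 CPM and SYP, a synaptic vesicle protein, at 1.97, 4.62 and 3.93 CPM. CHGA had 3, 2 and 5 counts, and INSM1, NEUROD1, CHGB and SRRM4 had none. PTPRC, the pan-leukocyte gene, had no count, and PECAM1 of endothelium had 3, 0 and 3.

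Epithelial adhesion genes were present almost without exception, with 33 of 34 members of the junction list at 1 CPM or more in every library. JUP, which encodes plakoglobin, stood at 616, 640 and 612 CPM, CDH1, the epithelial cadherin, at 292, 296 and 324 CPM, and EPCAM at 292, 312 and 301 CPM. Of 10 transcription factors of epithelial-mesenchymal transition, 3 reached that level. TWIST1 stood at 5.66, 6.02 and 4.99 CPM, SNAI1 at 2.71, 2.9 and 3.19 CPM, and TCF4 at 16.4, 13.4 and 13.7 CPM. ZEB1 had 13, 4 and 5 counts and FOXC2 none.

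CPM favours long transcripts, so genes were set against each other only after division by the merged exon length, as CPM per kb. On that scale neighbours among the upper 5 luminal genes overlapped within their SD. KRT19 stood at 252 ± 55.5 CPM per kb (SD, n = 3), CD24 at 249 ± 13.6 CPM per kb, KRT18 at 218 ± 21.2 CPM per kb, KLK3 at 208 ± 52.3 CPM per kb and FOXA1 at 199.6 ± 5.71 CPM per kb. CD24 lay apart from FOXA1, and FOXA1 from KRT8 at 168 ± 17 CPM per kb. SPDEF at 160.0 ± 3.36 CPM per kb lay apart from EPCAM at 119.8 ± 3.79 CPM per kb.

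All 25 listed receptor coregulators and pioneer factors reached 1 CPM in every library. GATA2 stood at 247, 232 and 217 CPM and the coactivator NCOA2 at 26.4, 27.4 and 26.9 CPM. HSP90AA1, a chaperone of unliganded steroid receptors, stood at 1484, 1471 and 1604 CPM. FKBP5, a co-chaperone and androgen-induced gene, stood at 246, 255 and 339 CPM and was highest in control 3, as was TMPRSS2, an androgen-regulated protease, at 252, 241 and 342 CPM.

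Among 48 steroid and nuclear receptors, 30 reached 1 CPM in every library and 7 had no count. Over all protein-coding genes those shares were 59.5% and 21.3%. The orphan receptor ESRRA led the list at 69.1 ± 3.51 CPM per kb (SD, n = 3), apart from NR2F6 at 52.1 ± 4.93 CPM per kb. The retinoid receptor RXRA stood at 70.1, 68.4 and 56.4 CPM and the vitamin D receptor VDR at 33.9, 25.5 and 26.6 CPM. Receptors for corticosteroids, estrogens and progesterone were low or without a count. The glucocorticoid receptor gene NR3C1 stood at 0.615, 1.5 and 1.28 CPM, the mineralocorticoid receptor gene NR3C2 at 2.09, 1.72 and 3.08 CPM, and ESR2, for estrogen receptor beta, at 2.83, 1.93 and 1.91 CPM. ESR1, for estrogen receptor alpha, and PGR, for the progesterone receptor, had no count, nor had HNF4A, NR1I2, RXRG, NR5A2 and NR0B1.

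Of 55 genes for steroid synthesis and conversion, 25 reached 1 CPM in every library and 14 had no count. Androgen conversion was represented by SRD5A1, the type 1 steroid 5-alpha-reductase, at 54.8, 54.7 and 55 CPM, with less than 1 CPM between the libraries. SRD5A2, the type 2 enzyme of normal prostate, had no count. SRD5A3 stood at 6.15, 6.45 and 6.27 CPM. Dehydrogenases of wide substrate range were also present, with HSD17B10 at 113, 118 and 116 CPM, HSD17B4 at 83.7, 80.2 and 84.7 CPM and RDH11, a retinol dehydrogenase, at 142, 134 and 134 CPM. On the per-length scale HSD17B10 led the list at 104 ± 2.04 CPM per kb and SRD5A1 stood at 7.11 ± 0.0219 CPM per kb (SD, n = 3).

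Genes for making steroids from cholesterol were at or near 0. STAR had 4, 4 and 2 counts, CYP11A1 had 0, 0 and 5, HSD3B1 had 0, 2 and 0, and CYP17A1, HSD3B2, CYP19A1, CYP21A2, CYP11B1 and CYP11B2 had none. CYP11A1 and CYP17A1 are uncertain because their exons overlap another gene. AKR1C1, AKR1C2, AKR1C3 and AKR1C4, the aldo-keto reductases that interconvert androgens, had a single count between them, in AKR1C1 of control 1. Their sequences are closely alike, so reads shared between them were not counted. HSD11B2, which inactivates cortisol, stood at 39.1, 40.2 and 62.3 CPM and was highest in control 3, while HSD11B1, which regenerates cortisol, had 0, 1 and 0 counts. STS, the steroid sulfatase, stood at 1.35, 1.29 and 1.7 CPM, and PAPSS1, which makes the sulfate donor, at 94.7, 92.3 and 86.2 CPM. Of the sulfotransferases, SULT2B1 stood at 24.3, 27.6 and 21 CPM and SULT2A1 had no count.

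**Figure D2:**
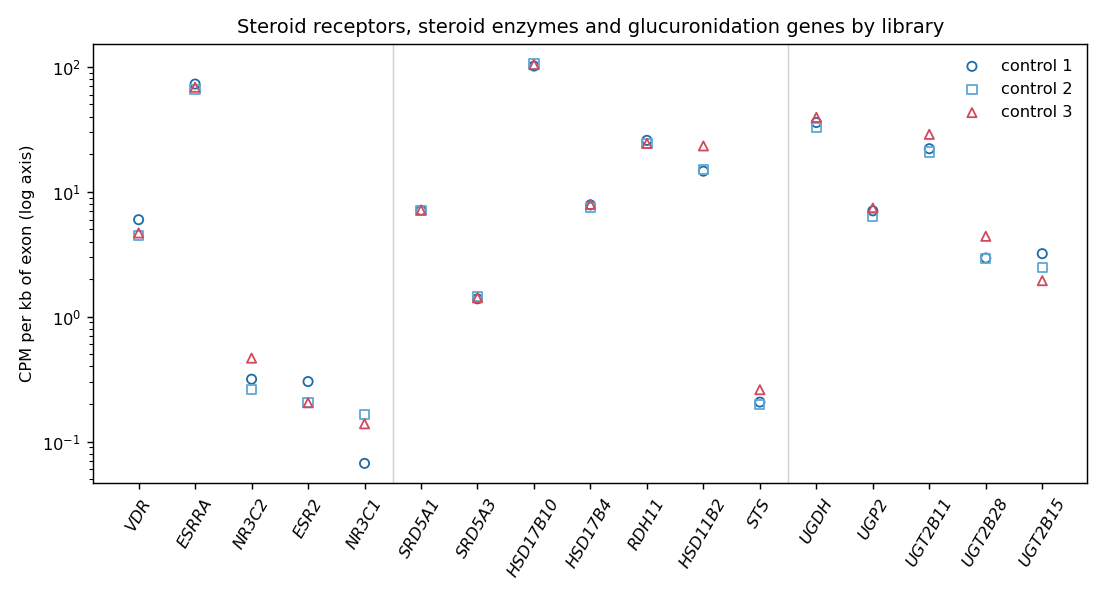
CPM per kb of exon on a log axis in each control library for 5 receptors (left), 7 steroid enzymes (middle) and 5 glucuronidation genes (right), with 1 symbol per library. NR3C1 lies more than 1 log unit below SRD5A1, and UGT2B11 lies above UGT2B28 and UGT2B15 in every library.

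Glucuronidation in these cells was transcribed through few transferases. UGT2B11 stood at 23.9 ± 4.29 CPM per kb (SD, n = 3), UGT2B28 at 3.43 ± 0.845 CPM per kb and UGT2B15 at 2.54 ± 0.628 CPM per kb. UGT2B11 exceeded both of the others in every library, and UGT2B28 and UGT2B15 overlapped. UGT2B28 itself stood at 5.41, 5.37 and 8.08 CPM and UGT2B15, a main androgen-conjugating enzyme of prostate, at 6.64, 5.16 and 4.04 CPM. Control 3 was the highest library for UGT2B28 and the lowest for UGT2B15. UGT2B17, the other main androgen-conjugating enzyme, and UGT2B7 had no count, UGT2B10 had 0, 3 and 0 counts and UGT2B4 had 0, 1 and 0. The UGT1A genes share their exons and are uncertain, with 2, 0 and 0 counts for UGT1A6 and none for the others listed. Of the genes that supply the cosubstrate, UGDH, which makes UDP-glucuronic acid, stood at 145, 132 and 159.5 CPM, UGP2, which makes its precursor, at 45.7, 41.5 and 48.1 CPM and SLC35D1, a UDP-sugar transporter, at 6.52, 6.23 and 6.69 CPM.

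UGT2B11 and UGT2B10 had sharply different counts, and the sequences just before their starts were nearly alike, which is why they are shown. The last 100 bases before the start of UGT2B11 (chr4:69214749-69214848, minus strand) and of UGT2B10 (chr4:68815894-68815993, plus strand) are given 5′ to 3′ from the RefSeq windows on GRCh38.p14, with capitals at the 5 positions at which they differ. UGT2B15 (chr4:68670653-68670752, minus strand) follows without capitals.
UGT2B11: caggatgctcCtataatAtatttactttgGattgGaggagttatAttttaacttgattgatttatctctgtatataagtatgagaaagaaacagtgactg
UGT2B10: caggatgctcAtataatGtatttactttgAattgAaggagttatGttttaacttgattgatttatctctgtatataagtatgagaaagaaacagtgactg
UGT2B15: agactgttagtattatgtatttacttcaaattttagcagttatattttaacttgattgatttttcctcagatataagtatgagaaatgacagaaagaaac
Over the full 250 bases before the start, UGT2B11 was identical to UGT2B10 at 90.2% of aligned columns, to UGT2B15 at 71.3% and to UGT2B7 at 64.9%. UGT2B28, UGT2B17 and UGT2B4 were not in the table of windows used.

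The secretory programme was uneven. Of 30 listed secretory genes, 17 reached 1 CPM in every library and 3 had no count, beside 59.5% and 21.3% of all protein-coding genes. MDK, the growth factor midkine, stood at 1080.2, 1087 and 855 CPM and was lowest in control 3. GDF15, a stress-responsive cytokine, stood at 352, 351 and 854 CPM and was highest in control 3. SPON2 stood at 439, 423 and 445 CPM, CRISP3 at 190.4, 199 and 215 CPM and AZGP1, zinc-alpha-2-glycoprotein, at 66.6, 60.8 and 95.2 CPM. MSMB, beta-microseminoprotein, stood at 0.369, 1.61 and 1.91 CPM, and SEMG1 and SEMG2, the semenogelins, had no count. All 19 genes of polyamine and citrate metabolism reached 1 CPM in every library, among them OAZ1 at 445, 427 and 412 CPM and ODC1, the first enzyme of polyamine synthesis, at 390.4, 397 and 428 CPM.

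Kallikreins covered a steep range of levels. Of 16 members, 10 reached 1 CPM in every library, near the share of 59.5% over all protein-coding genes. KLK3 led at 208 ± 52.3 CPM per kb (SD, n = 3), followed by KLK4 at 85.7 ± 13.1 CPM per kb and KLK2 at 81.3 ± 16.5 CPM per kb, which overlapped each other. KLK1 stood at 82.1, 87.6 and 162 CPM and KLK14 at 25.8, 22.6 and 49.2 CPM. KLK8 and KLK9 had no count but overlap other genes, so their absence is uncertain. KLK12 had 6, 3 and 8 counts and KLKB1, which encodes plasma kallikrein, had 1, 1 and 0.

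KLK3 and KLK2 are neighbours on chromosome 19 and share an upstream run of 14 identical bases that holds GAACA, shown here because both encode androgen-regulated prostate kallikreins. The 94 bases around it lie at chr19:50854706-50854799 for KLK3 and chr19:50873224-50873317 for KLK2, both on the plus strand of GRCh38.p14, and capitals mark that run. A longer identical run follows it.
KLK3: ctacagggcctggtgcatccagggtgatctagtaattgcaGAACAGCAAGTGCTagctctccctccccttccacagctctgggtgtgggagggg
KLK2: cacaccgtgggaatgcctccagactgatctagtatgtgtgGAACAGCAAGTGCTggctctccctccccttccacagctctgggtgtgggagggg
The printed stretches were identical at 75 of 94 positions, with 39 identical positions in the longest run. GAACAGCAAGTGCT, read on both strands, was found in 2 of 35116 windows, those of KLK2 and KLK3 from which it was taken. The shorter AGAACA is the first arm of the consensus androgen response element. It was found on either strand in 2 of 23 kallikrein windows (8.70%) and in 12.4% of all windows. The 2 kallikrein windows were those of KLK3 and KLKB1. The full palindrome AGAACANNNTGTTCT was found in 0 of 23 kallikrein windows and in 1 of all windows. These are matches of letters in the 250 bases before a start and not sites of binding.

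Among receptor tyrosine kinases ERBB3 had the highest level per length. Of 49 members, 28 reached 1 CPM in every library and 8 had no count, beside 59.5% and 21.3% of all protein-coding genes. ERBB3 stood at 37.5 ± 1.93 CPM per kb (SD, n = 3), apart from ERBB2 at 27.2 ± 0.766 CPM per kb, which overlapped the collagen receptor DDR1 at 27 ± 0.77 CPM per kb. In CPM, ERBB3 stood at 326, 332 and 359 CPM, ERBB2 at 281, 289 and 273 CPM and EGFR at 49.3, 52.7 and 70.4 CPM, with EGFR highest in control 3, and ERBB4 at 5.78, 6.66 and 6.06 CPM. EPHB4 stood at 161, 152 and 134 CPM and FGFR3 at 87.3, 84.9 and 82.8 CPM. IGF1R, the insulin-like growth factor receptor, was low at 4.06, 4.94 and 5.53 CPM. MET, the hepatocyte growth factor receptor, had 1, 0 and 0 counts, and AXL, NTRK2, NTRK3, FLT1, FLT3, TEK, ROS1 and MUSK had none.

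Of 24 surface antigens used as therapy targets, 17 reached 1 CPM in every library and 2 had no count. Over all protein-coding genes those shares were 59.5% and 21.3%. STEAP1 stood at 16.8, 16 and 24.4 CPM, CD276, for B7-H3, at 106, 101 and 99.1 CPM and NECTIN4 at 50.3, 44.6 and 49.9 CPM. CEACAM5 stood at 4.3, 4.08 and 12.6 CPM, highest in control 3. CD274, for PD-L1, and CLDN18 had no count, and DLL3 had 0, 3 and 0 counts. Of the ETS genes joined to TMPRSS2 in many prostate cancers, ERG and ETV1 had no count, ETV4 stood at 42.8, 42 and 39.1 CPM and ETV5 at 2.34, 3.33 and 3.93 CPM. SPINK1, which marks a separate subtype, had no count. The epithelial ETS factor EHF stood at 485, 488 and 519 CPM and ELF3 at 143, 162 and 238 CPM, the latter highest in control 3.

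Of 45 tumour suppressors and oncogenes, 42 reached 1 CPM in every library, and control 3 was below both others for 24 of those 42. Over all genes with a mean of at least 1 CPM, control 3 was below both others for 41.1%. RB1 stood at 36.8, 34.8 and 36.5 CPM and MYC at 112, 117 and 129 CPM. CCND1, cyclin D1, stood at 458, 451 and 499 CPM while CCND2 had no count. CDKN1A, the p21 inhibitor, was low at 1.84, 3.12 and 3.83 CPM. All 27 proliferation genes reached 1 CPM in every library, among them MKI67 at 143, 149 and 136 CPM and TOP2A at 195, 178 and 182 CPM.

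Of 35 members with a row in the list of cancer testis antigens, 10 reached 1 CPM in every library and 11 had no count. Over all protein-coding genes those shares were 59.5% and 21.3%. Many such antigens are normally restricted to germ cells. That restriction does not apply to the listed relatives LAGE3, MAGED2 and MAGED1, which stood at 107, 75.7 and 19.3 CPM per kb. PRAME stood at 559, 579.6 and 565 CPM, CTAG2 at 122, 119 and 112 CPM, MAGEA3 at 112, 99 and 123 CPM and MAGEA1 at 50.3, 53.7 and 53 CPM, while CTAG1B had 2, 0 and 1 counts and MAGEA4 had 0, 1 and 0. Members of these families are closely alike and may have lost reads to more than 1 place. Of 19 antigen presentation genes, 6 reached 1 CPM in every library and 5 had no count. HLA-E, a nonclassical class I gene, stood at 52.1, 45.7 and 55.9 CPM and TAPBP, which encodes tapasin, at 59.6, 55.9 and 54.9 CPM. B2M, the light chain of class I, stood at 18.9, 18.7 and 25.6 CPM, HLA-C at 17, 22.6 and 33.3 CPM and HLA-B at 2.58, 4.08 and 3.29 CPM. PSMB9 had no count, and CIITA, the class II regulator, stood at 39.2, 37 and 29.2 CPM while HLA-DRA had 8, 3 and 2 counts.

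MYOD1, the master factor of skeletal muscle, stood at 49.7, 44.6 and 147 CPM, and PAX7, a factor of muscle stem cells, at 26.8, 26.1 and 20.1 CPM. MYOG, MYF5 and MYF6, the other myogenic factors, had no count, nor had MYMK, and ACTA1, skeletal actin, had 9, 5 and 5. Without control 3 the mean of MYOD1 was 47.1 CPM. Of 39 HOX genes, 21 reached 1 CPM in every library, among them, beside HOXB13, HOXA10 at 16.5, 16.6 and 14.5 CPM and HOXB3 at 14.9, 13.1 and 14.1 CPM. HOXD9, HOXD10, HOXD12 and HOXD13 had no count. The muscle and HOX lists were made after values had been seen.

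Of 26 listed developmental transcription factors, 19 reached 1 CPM in every library, beside 59.5% of all protein-coding genes. The list was made after values had been seen, so that count is no result about such factors in general. SOX4 stood at 152, 158 and 197 CPM, the neural and fetal factor SOX11 at 146, 137 and 107 CPM, IRX3 at 126, 133 and 138 CPM and DLX1 at 103, 108 and 96.5 CPM. SOX2 had 1, 1 and 1 counts, GATA3 had 3, 1 and 1, and PAX2 had none. Among 39 markers of other organs, 7 reached that level and 12 had no count. PMEL, a melanosome protein, stood at 23.9, 26.4 and 27.9 CPM and MBP, a myelin gene, at 37.4, 34.5 and 37.1 CPM, while ALB had 0, 1 and 0 counts and SFTPC, INS, AFP and TYR had none, INS being uncertain.

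Lipid synthesis genes were present almost without exception. Of 34 genes of cholesterol and fatty acid synthesis, 32 reached 1 CPM in every library. Among them SCD, the stearoyl-CoA desaturase, stood at 707, 711 and 813 CPM and ACLY, which makes cytosolic acetyl-CoA, at 607, 625 and 673 CPM. ACACB, the second acetyl-CoA carboxylase, and ME1, the cytosolic malic enzyme, had no count.

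Of 25 interferon-stimulated genes, 10 reached 1 CPM in every library. STAT2 stood at 58.7, 61.3 and 62.4 CPM, MX1 at 42.9, 43.5 and 58.6 CPM and ISG15 at 9.47, 10.3 and 10.8 CPM. IFIT1 had 2, 0 and 7 counts, IFI6 had 0, 0 and 1 and OAS2 had 0, 1 and 0. Among 33 long noncoding RNAs, 26 reached that level. NEAT1, the scaffold of paraspeckles, stood at 1056, 998 and 1560.2 CPM and was highest in control 3, and MALAT1 stood at 237, 226 and 292 CPM. The prostate transcripts PCAT1 and DRAIC stood at 46.4, 54.2 and 68.5 CPM and 34.6, 29.7 and 32.3 CPM, whereas PCA3 had 0, 1 and 2 counts and PCGEM1 had 1, 0 and 0.

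Of 40 hormone and neurotransmitter receptors with a row, GPR160, an orphan receptor, stood at 78.1, 72.8 and 77 CPM and PTGER4, a prostaglandin E receptor, at 26.3, 21.2 and 32.3 CPM. CXCR4 stood at 4.8, 4.3 and 9.25 CPM, highest in control 3. OR51E2, the prostate-specific G-protein coupled receptor, had no count, nor had LHCGR, FSHR and LGR5, and GRPR had 0, 1 and 0. Replication-dependent histone genes were mostly under 1 CPM, with 13 of 55 at or above it in every library, among them H1-2, a linker histone, at 85.5, 85 and 98.8 CPM.

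The protein-coding genes with the most counts included mitochondrial, translation and metabolic genes. MT-CO1, a subunit of cytochrome oxidase, stood at 21715, 22957 and 21428 CPM, EEF1A1, a translation elongation factor, at 6930.4, 6823 and 7420.3 CPM, GAPDH at 4842, 4975 and 6388 CPM and FASN, the fatty acid synthase, at 3043, 3030.2 and 4012 CPM. Mitochondrial mRNAs took 6.57%, 6.90% and 6.04% of counts and cytosolic ribosomal protein mRNAs 8.38%, 8.39% and 8.11%. All 40 housekeeping genes reached 1 CPM in every library. TBP stood at 27.3, 28.2 and 29.6 CPM, HPRT1 at 47, 55.5 and 49.4 CPM and ACTB at 2104, 2079.8 and 2226 CPM, while GAPDH, LDHA at 1404, 1378 and 2189.8 CPM and PGK1 at 365, 366 and 598 CPM were highest in control 3.

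Several gene families made up part of the genes without a count. Over all protein-coding genes 59.5% reached 1 CPM in every library and 21.3% had no count. Of 381 olfactory receptor genes none reached 1 CPM in every library and 346 had no count. Of 94 keratin-associated protein genes 88 had no count, and of 17 type I interferon genes 14 had none. By contrast 37 of 53 clustered protocadherins and 429 of 508 ZNF zinc finger genes reached 1 CPM in every library. Of 24 small structured RNAs 17 had no count, among them RNU1-1 and RNU2-1 of the spliceosome. Reads that align to more than 1 place were not counted. For RNAs with near-identical copies a lack of counts therefore does not show absence.

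Control 3 departed from controls 1 and 2, which resembled each other. Its ratio to the mean of the other 2 controls was taken on log2(CPM + 0.5) for the 16128 genes with a mean of at least 1 CPM. It has no replicate check, and no test was made. Control 3 was at least 2-fold higher for 171 genes (1.06%) and at least 2-fold lower for 175 (1.09%). The same shares were 0.558% and 0.911% for control 1 and 0.62% and 0.589% for control 2. Among the 10501 genes with a mean of at least 10 CPM, control 3 was at least 2-fold higher for 28 (0.267%) and lower for 7 (0.0667%). In control 1 those counts were 0 and 2 (0.019%), and in control 2 they were 1 and 1 (0.00952% each). The chi-square of gene counts per degree of freedom was 2.13 between controls 1 and 2, 5.70 between controls 1 and 3 and 6.12 between controls 2 and 3.

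**Figure D3:**
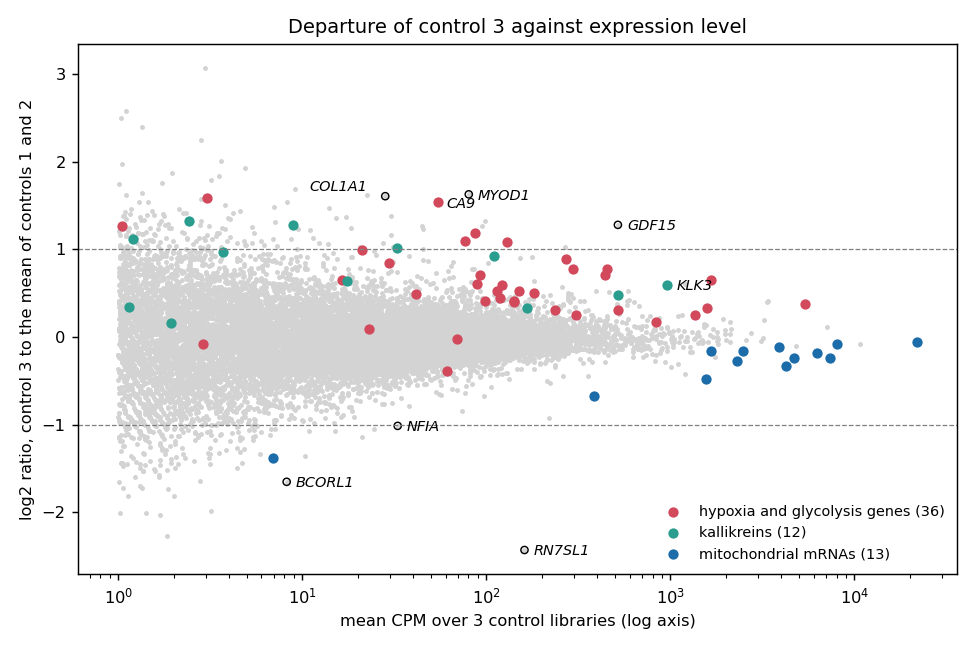
Log2 ratio of control 3 to the mean of controls 1 and 2 against mean CPM on a log axis, with 1 point per gene with a mean of at least 1 CPM and dashed lines at 2-fold. Most hypoxia and glycolysis genes and all kallikreins shown lie above 0, and the 13 mitochondrial mRNAs lie below it.

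Genes of hypoxia and glycolysis were higher in control 3. These genes carry out glucose breakdown or are induced when oxygen is low. Control 3 was above both other libraries for 33 of 36 members and below both for 1, against 33.9% above both and 41.1% below both over all genes. Over all genes control 1 was above both others for 34.6% and below both for 29.2%, and control 2 for 31.5% and 29.8%. The median log2 ratio of the list was 0.53, beside -0.02 over all genes. CA9, a carbonic anhydrase of hypoxic cells, stood at 32.5, 33.8 and 97 CPM, a log2 ratio of 1.54, and is uncertain because its exons overlap ARHGEF39. SLC16A3, the lactate exporter, stood at 63.1, 58.3 and 138 CPM and EGLN3, an oxygen-sensing hydroxylase, at 54.1, 57.1 and 119 CPM. ADM, adrenomedullin, stood at 96, 93.2 and 201 CPM, VEGFA at 237, 239.6 and 409 CPM and NDRG1 at 209, 209 and 389.8 CPM. Controls 1 and 2 lay close together for each of these, and control 3 lay above both. LDHA, lactate dehydrogenase A, had a log2 ratio of 0.65 and PGK1 of 0.71. The exceptions were HK1 at 70.6, 68.6 and 68.8 CPM, PFKM at 69.1, 64.2 and 50.7 CPM and CA12 at 2.71, 3.22 and 2.76 CPM.

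Promoter windows of 32 members of this list were in the RefSeq table, and 5 with a TACGTG or its reverse complement are shown because hypoxia-inducible factors are known to bind sequences with the core ACGTG. They were the 5 with the highest log2 ratio among matching members with a mean of at least 10 CPM. Capitals mark the match, and each lies in the 250 bases before the start on GRCh38.p14. The stretches are chr9:35673890-35673927 (plus), chr12:6914441-6914486 (plus), chr5:122078333-122078378 (minus), chr2:172556062-172556089 (plus) and chr17:28576898-28576943 (minus), in the order printed.
CA9: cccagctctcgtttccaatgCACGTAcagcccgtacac
ENO2: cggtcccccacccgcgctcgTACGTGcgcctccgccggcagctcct
LOX: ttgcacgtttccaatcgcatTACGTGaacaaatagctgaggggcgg
PDK1: ctgctgcccgccacgtccctCACGTAcc
ALDOC: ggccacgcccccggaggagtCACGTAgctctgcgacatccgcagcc
TACGTG, read on both strands, was in 10 of 61 windows of the list (16.4%) and in 2.76% of all windows. ACGTG, which TACGTG contains, was in 25 of 61 (41.0%) and in 18.5% of all windows, and GCGTG was in 21 of 61 (34.4%) and in 32.2%. Several windows can belong to 1 gene. The list holds genes picked as hypoxia-induced or glycolytic, and the motifs were chosen after seeing the data. A higher share in the list is therefore no test of what set control 3 apart. These are matches of letters and not sites of binding. Of the genes shown, LOX, a collagen cross-linking enzyme, stood at 76.6, 75.6 and 124 CPM, PDK1, which restrains pyruvate entry to mitochondria, at 79.2, 72 and 115 CPM, and ALDOC, an aldolase, at 160.2, 159 and 226 CPM.

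Kallikreins were also higher in control 3. Of 16 members, 12 had a mean of at least 1 CPM, and control 3 was above both other libraries for all of those 12. Over all genes that share was 33.9%. KLK7 and KLK5 were under 1 CPM in 1 or both of the other libraries. The list's median log2 ratio was 0.78. KLK3 had a log2 ratio of 0.59, KLK2 of 0.48 and KLK4 of 0.33. KLK1 had 0.93 and KLK14 had 1.01. FOXA1 had a log2 ratio of -0.01.

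Control 3 was below both other libraries for 13 of 13 mitochondrial mRNAs, against 41.1% of all genes. The list's median log2 ratio was -0.24. MT-ND3 stood at 1748, 1719 and 1242 CPM and MT-CYB at 4512, 4593 and 3617 CPM, and control 3 was the lowest library for each. MT-CO1 (1542 bases of exon) differed least, with a log2 ratio of -0.06. The short MT-ND4L (297 bases) and MT-ND3 (346 bases) had -0.67 and -0.48, while MT-CYB (1141 bases) had -0.33. Of protein-coding genes with a mean of at least 1 CPM, those of 207 to 2977 bases had a median of -0.047. Those of 8354 to 118976 bases had a median of -0.006. The part of transcript length was not tested. Nuclear genes of oxidative phosphorylation had a median of -0.06 and cytosolic ribosomal protein genes of -0.06. RN7SL1, the RNA of the signal recognition particle, stood at 172, 272 and 39.7 CPM and is uncertain because its exons overlap another gene. Controls 1 and 2 also differed for it.

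**Figure D4:**
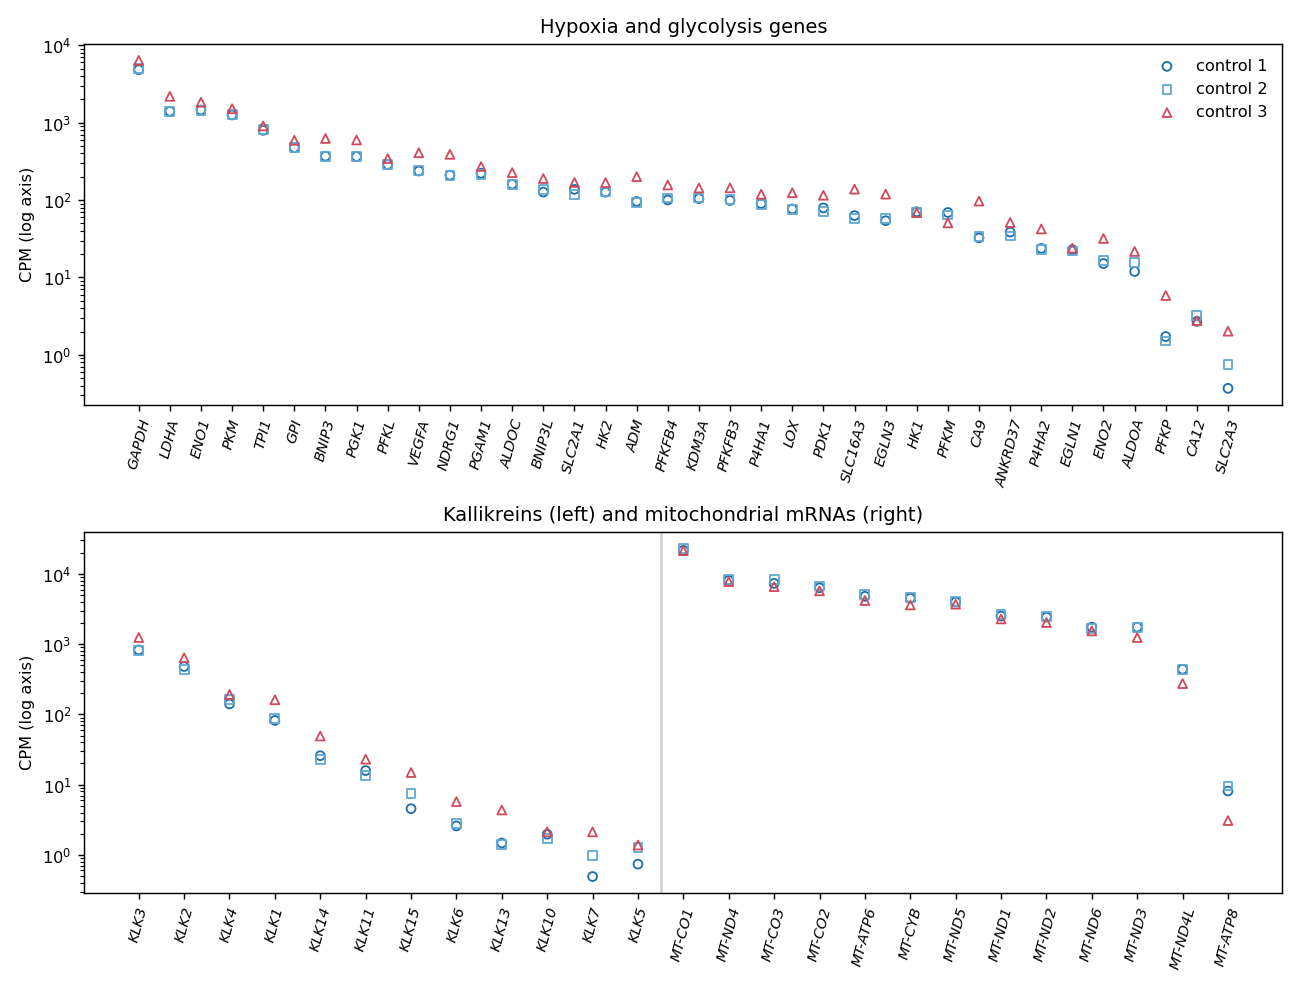
CPM on a log axis in each control library for every hypoxia and glycolysis gene, for the 12 kallikreins with a mean of at least 1 CPM and for the 13 mitochondrial mRNAs, with 1 symbol per library. Symbols of controls 1 and 2 mostly overlie each other, those of control 3 lie above them for 33 of 36 hypoxia and glycolysis genes and below them for all 13 mitochondrial mRNAs.

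Several collagens and SPARC, all of the fibroblast list, were higher in control 3 as well. COL1A1, type I collagen, stood at 18.2, 15 and 51.4 CPM, SPARC at 6.52, 6.23 and 15.6 CPM and COL3A1 at 2.09, 1.07 and 7.65 CPM. COL1A2, the partner chain of COL1A1, had 3, 6 and 74 counts. Control 3 was above both others for 7 of the 10 members with a mean of at least 1 CPM and below both for 3. Over all genes those shares were 33.9% and 41.1%. The list's median log2 ratio was 0.97. That median was 0.28 over the members with a mean of at least 5 CPM. The list's summed level was 131, 124 and 199.7 CPM. FN1, fibronectin, stood at 53.4, 55.5 and 66.3 CPM and TAGLN at 31.1, 27 and 26.9 CPM. DCN stood at 2.83, 3.65 and 2.34 CPM, THY1 had 0, 0 and 4 counts, PDGFRA had 2, 0 and 0, DES had 0, 1 and 0 and CNN1 had none. Endothelial markers had summed levels of 4.92, 3.98 and 8.71 CPM. The 2 with a mean of at least 1 CPM were higher in control 3, VWF with 20, 10 and 46 counts and KDR with 5, 13 and 26, while PECAM1 had 3, 0 and 3 and CDH5 had 1, 2 and 0. The part of other cells in the departure of control 3 was not tested.

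The other lists with at least 10 members at a mean of 1 CPM had medians closer to 0 than that of the hypoxia and glycolysis genes. Control 3 was above both others for 21 of 31 immediate early and stress genes, against 33.9% of all genes. The median log2 ratio of these 31 was 0.29. FOS stood at 34.3, 27.9 and 73.3 CPM, JUN at 175, 178 and 222 CPM and ATF4 at 651, 669.6 and 565 CPM. Proliferation genes had a median of -0.04 and steroid and nuclear receptors of -0.16. Control 3 was below both others for 18 of those 31 receptors, against 41.1% of all genes.

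**Figure D5:**
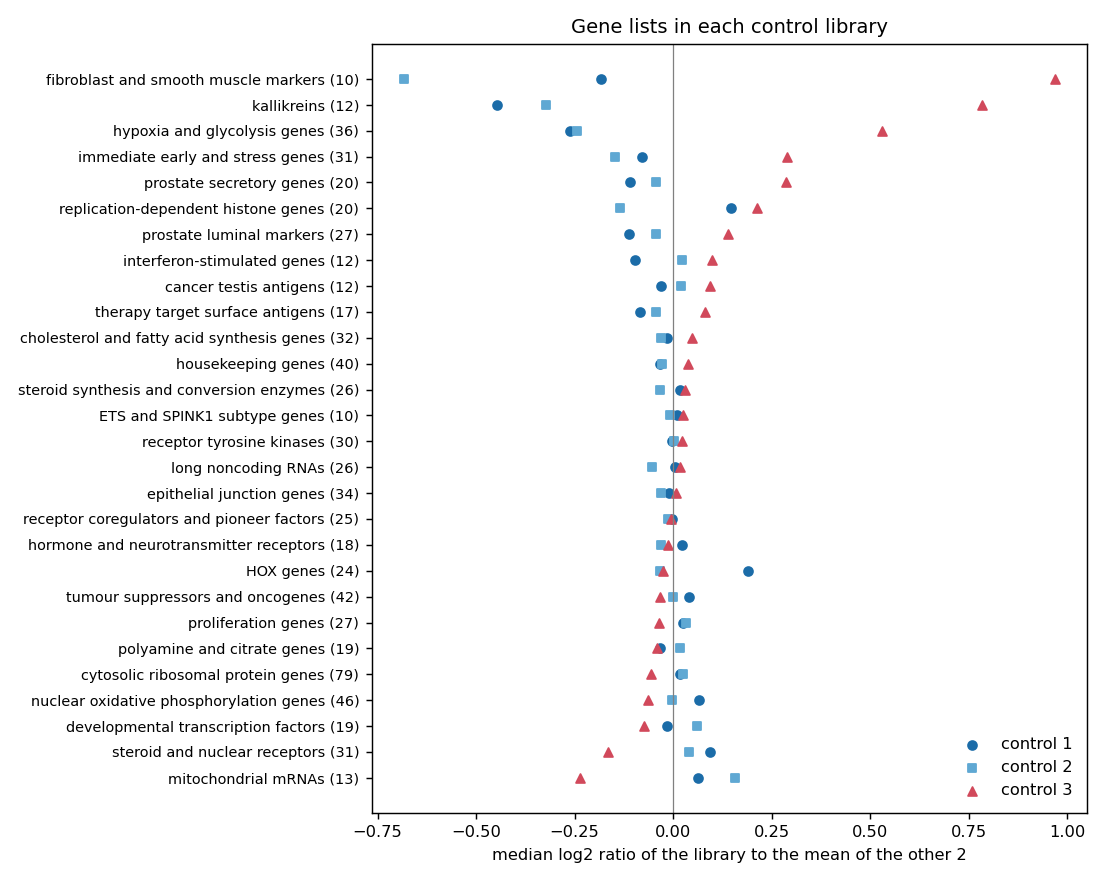
Median log2 ratio of each control library to the mean of the other 2, for the lists with at least 10 members at a mean of 1 CPM, with the number of such members in parentheses and 1 symbol per library. Control 3 lies farthest from 0 for fibroblast and smooth muscle markers, kallikreins, and hypoxia and glycolysis genes on the high side and for mitochondrial mRNAs on the low side.

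Among protein-coding genes with a mean of at least 5 CPM, less than 0.5 log2 units between controls 1 and 2 and no uncertain exon overlap, the 12 highest ratios of control 3 were those of MYOD1, STAC2, COL1A1, CEACAM5, COL6A2, ITGA5, NDUFA4L2, ARRDC2, GDF15, PLAT, PNCK and DTNA. MYOD1 had a log2 ratio of 1.63, from 404, 415 and 1379 counts, and GDF15 of 1.28. NDUFA4L2, a mitochondrial protein known from hypoxic cells, stood at 62.1, 69 and 165 CPM. PLAT, tissue plasminogen activator, stood at 63.5, 64.8 and 155 CPM, and ITGA5, a fibronectin receptor subunit, at 10.1, 9.67 and 26.1 CPM. That control 3 lay far outside the pair of other values for each follows from how these genes were picked. The exact Poisson 95% interval of control 3 for GDF15 ran from 835 to 873 CPM and covers counting error only.

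The 12 lowest ratios were those of BCORL1, ABHD15, S1PR3, VMAC, DOK4, SOBP, RCAN3, PPP1R1A, NFIA, SESN2, WFIKKN1 and CPT1C. BCORL1, a transcriptional corepressor, had 96, 91 and 29 counts and a log2 ratio of -1.65. S1PR3, a sphingosine-1-phosphate receptor, stood at 27.5, 24.5 and 11.5 CPM, PPP1R1A, an inhibitor of protein phosphatase 1, at 29.5, 30.2 and 14.1 CPM, and NFIA, a nuclear factor I protein, at 39.8, 39.7 and 19.4 CPM. SESN2, a stress-induced sestrin, had 56, 57 and 28 counts.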

How the data were processed

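Total RNA of the 3 control libraries was sequenced paired-end, per the labels' protocols. The files deposited by the authors hold raw read counts, whole numbers with no normalization. The submitters' processing notes name FastQC, cutadapt, STAR, HTSeq and hg38. Their versions, settings and gene annotation, and whether strand was used, are not given there or in the labels. Rows for reads without a gene stayed out of library sizes. They held 46.3% to 47.7% of all counts on no feature, 2.62% to 2.74% as ambiguous and 7.96% to 10.0% as aligned to more than 1 place.

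CPM were computed on the sum over genes with Python 3.11.15 and pandas 2.3.3. Symbols were matched to GENCODE 29 for type and merged exon length, and 55690 of 60325 rows matched 1 gene. A gene was called uncertain where at least 20% of its exon length overlapped another gene. In 322 pairs of a noncoding gene inside exons of an opposite-strand gene of at least 20 CPM, the noncoding gene's counts per kb were 2.21 times its partner's at the median, so such genes are counted and not named unless listed. Ratios used log2(CPM + 0.5) and a mean of at least 1 CPM, and the ratio script was tested on simulated data. No test between libraries was made, since the labels put all 3 in 1 group. Other scalings used TMM factors of edgeR 4.0.16 and size factors of DESeq2 1.42.0.

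The members and 36 gene lists were chosen with earlier results of these data known, and 3 further lists (HOX, skeletal muscle and developmental transcription factor genes), the gene families, the overlap threshold and the motifs after seeing the data. Named genes were the 25 highest by CPM and by CPM per kb, up to 8 highest members of each list and those without a count, the UGT2B genes, and the 12 highest and 12 lowest ratios of control 3 among genes of at least 5 CPM. Genes named beyond these were chosen after their values were seen. Promoter sequences are from RefSeq on GRCh38.p14. Some listed genes are not reported here.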

Additional observations from a re-analysis of the deposited data

How the results depend on the processing

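No paired analysis was possible because the 3 libraries form 1 group and no test between groups was made. The counts of detected genes, of genes without a count and of listed genes at 1 CPM stayed within 1.5 times of the reported ones under every alternative run, with 15237 to 15346 genes detected when 1 library was left out. The count of genes at least 2-fold away in control 3 depended on low levels. For higher genes it was 311 with a pseudocount of 0.1 CPM, 46 with 2 CPM, 43 at a mean of at least 5 CPM, 28 at 10 CPM and 485 with no filter. It was 244 without control 1 and 273 without control 2. For lower genes it was 344, 11, 21, 7 and 394 under the same 5 settings. Among genes of at least 10 CPM the lower count was 3 with a pseudocount of 2 CPM, 11 without control 1 and 12 without control 2. The median ratio over all genes turned from -0.02 to 0.0011 with TMM factors and 0.0010 with DESeq2 size factors. The fibroblast list's median was 0.28 at a mean of at least 5 or 10 CPM and 0.47 with no filter, since other members enter the median. The medians stayed between 0.51 and 0.55 for hypoxia and glycolysis genes, 0.54 and 0.80 for kallikreins and -0.27 and -0.18 for mitochondrial mRNAs over all alternatives run.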
